A study of Homo sapiens with 9 samples.

Results

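Nuclear pore complex mRNAs were followed here in nuclear and cytoplasmic RNA of human HEK293 cells in which the m6A methyltransferase complex had been depleted. The group comprised 31 listed genes, namely nucleoporins and the pore-associated factors GLE1, RAE1 and AHCTF1. They were chosen by name and not by a cut on their values, although earlier results of these data were known. All 31 were matched among 56349 genes, and all 31 were among the 16181 genes with enough counts to be tested. HEK293 is an embryonic kidney line (HEK293 is the name in the sample labels, and the study's methods name the T-antigen derivative of the line). Control samples received control siRNA, and RNAi samples received siRNAs against both WTAP and KIAA1429 (also called Virilizer or VIRMA), subunits of the complex that places m6A on mRNA. RNA was sequenced from 1 control cytoplasmic sample (replicate 2), 3 control nuclear samples, 2 RNAi cytoplasmic samples (replicates 1 and 2) and 3 RNAi nuclear samples. The comparison asked whether the distribution of mRNA between nucleus and cytoplasm changed when the complex was depleted. The remaining cytoplasmic replicates were not analysed here, so every cytoplasmic control value rests on 1 library, and what is particular to that library cannot be told apart from the effect of the siRNA. Nothing in the labels says that replicates came from separate cultures, so p-values measure the spread between these samples, which may be technical.

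The nuclear pore complex is the channel through which mRNAs, proteins and ribosomal subunits cross the nuclear envelope. It is built of stacked rings. A Y-shaped subcomplex forms the outer rings, an inner ring anchors a central channel lined with phenylalanine-glycine repeats, membrane proteins hold the pore in the envelope, filaments face the cytoplasm and a basket faces the nucleoplasm. Export of mRNA ends at the cytoplasmic filaments, and the basket receives mRNPs on the nuclear side.

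WTAP, the targeted subunit, fell to 56.2% of control in nuclei and to 30.3% in the cytoplasm, and VIRMA fell to 47.2% and 23.8% (edgeR's quasi-likelihood test, adjusted p between 0.00079 and 0.0314). Libraries held 11627403 to 19036141 estimated counts. On the CPM scale used here, which divides the counts matched to genes by a library total adjusted for composition, 3 counts corresponded to 0.183 to 0.328 CPM. Replicates correlated at r = 0.9723 to 0.9861 across genes on the log2 CPM scale, the lowest value being between control nuclear replicates 1 and 2. Control nuclear replicate 2 was also the lowest nuclear library for RANBP2 and POM121, and their values without it are given with the results. The nuclear RNAs of a list of 5 (3 of them above 1 CPM on average, including MALAT1 and NEAT1) summed to 256 to 355 CPM in control nuclei and 392 to 420 CPM in RNAi nuclei. In the cytoplasm they summed to 33.3 CPM in the control library and to 19.7 and 20.6 CPM in the RNAi libraries, and the part of this difference in the cytoplasmic results was not tested. Mitochondrial RNAs, a list of 5, were not depleted from nuclei, at 86500 to 164000 CPM in control and 86900 to 145000 CPM in RNAi nuclei against 60200 CPM in control and 71900 to 113000 CPM in RNAi cytoplasm. Of 7 listed HEK293 markers, 6 were matched and all 6 were above 1 CPM. Among markers of other cell types, the T cell gene CD3E was at 0 in every library.

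The sequences that follow show, for the 6 members whose nuclear/cytoplasmic ratio changed and for NUP62 and NUP98, whose change did not pass the test, the GGACT motif that lies nearest to the start of the final exon, because GGACT is the commonest form of the sequence that the m6A complex methylates and m6A is known to gather near that position. The motif is in capitals, and each line holds 25 bases of the reference mRNA, 5′ to 3′, within the same exon. A motif whose 25 bases would cross an exon boundary was passed over, so a nearer motif may exist.
TPR: ggtggtgatgGGACTgatccaggta
RANBP2: attgttcctcGGACTgctgagaact
AHCTF1: cgcagcagcaGGACTcggtctagca
NUP54: tttgggaactGGACTgggatttgga
NUP107: cctagaccagGGACTtgacccatta
NDC1: agaagaaaacGGACTaattagatgc
NUP62: tgccaccactGGACTctccctctgt
NUP98: ccatgcctgaGGACTatgccatgga

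In GRCh37 the TPR window lies on the minus strand at chr1:186294962-186294986, in coding exon 42 of 51. The RANBP2 window lies on the plus strand at chr2:109399211-109399235, in coding exon 28 of 29. The AHCTF1 window lies on the minus strand at chr1:247013001-247013025, in coding exon 33 of 36, an internal exon of 1828 nt. NUP54 holds its window on the minus strand at chr4:77065333-77065357 (coding exon 3 of 12), and NUP107 on the plus strand at chr12:69136197-69136221 (the coding part of its final exon, 28). The NDC1 window is in the 3′ UTR, on the minus strand at chr1:54233540-54233564, within the final exon, 18. The NUP62 window (minus strand, chr19:50412345-50412369) and the NUP98 window (minus strand, chr11:3697447-3697471) are coding and lie in the final exons, 3 and 33. Not all motifs lay close to the start of the final exon. Their distance from it was -1005 nt for TPR, -98 for RANBP2, -316 for AHCTF1 and -1146 for NUP54, negative values being upstream. It was 72 nt for NUP107, 152 for NDC1, 782 for NUP62 and 145 for NUP98.

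GGACT was searched on the transcript strand alone, and no other motif was searched. At least 1 copy was present in the most counted transcript of 30 of the 31 members (96.8%, SEH1L being the exception), compared with 86.1% of the 12771 tested genes whose transcript length was within 5% of the annotated one. The transcripts of all 31 members, taken without that limit, had a median deposited length of 3870 nt against 2660 nt for those genes. Per kilobase of annotated sequence the motif was as frequent, at a median of 0.94 in members and 0.947 in the other set. Over the 22 members that met the limit, the medians were 4780 nt and 0.95. Final exons held the motif in 18 of 31 members (58.1%) and in 63.6% of the 12771 genes. A match describes the letters and is not a mapped methylation site. TPR had 3 copies in all (0.31 per kb) and none in its final exon, whereas RANBP2 had 11 and AHCTF1 had 10.

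TPR and RANBP2 mRNA shifted towards the nucleus after WTAP/KIAA1429 RNAi, by 5.01-fold and 9.16-fold in the nuclear/cytoplasmic ratio, and most other pore mRNAs did not pass the test. A gene passed the test when its log2 change exceeded 0.5 in size and its Benjamini-Hochberg adjusted p from edgeR's quasi-likelihood test over all 16181 genes was under 0.1. The nuclear/cytoplasmic ratio rose for 5 of the 31 members (16.1%), namely RANBP2, TPR, AHCTF1, NUP54 and NUP107, compared with 10.4% of all genes tested. It fell for 1 member (3.23%), NDC1, compared with 7.87% of all genes. The median log2 change of the ratio was 0.22 over the members and -0.05 over all genes. Scaling by library size alone moved the median of all genes to 0.233 and the split of all calls from 1680 higher and 1273 lower to 2236 higher and 164 lower, so changes of ratio are relative to the bulk of genes. The 5 members that rose and NDC1 kept their signs under that scaling. Composition moved with the result, as set out below, and a correction for GC content added after the data were seen left TPR and RANBP2 as the members with a higher ratio.

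**Figure D1:**
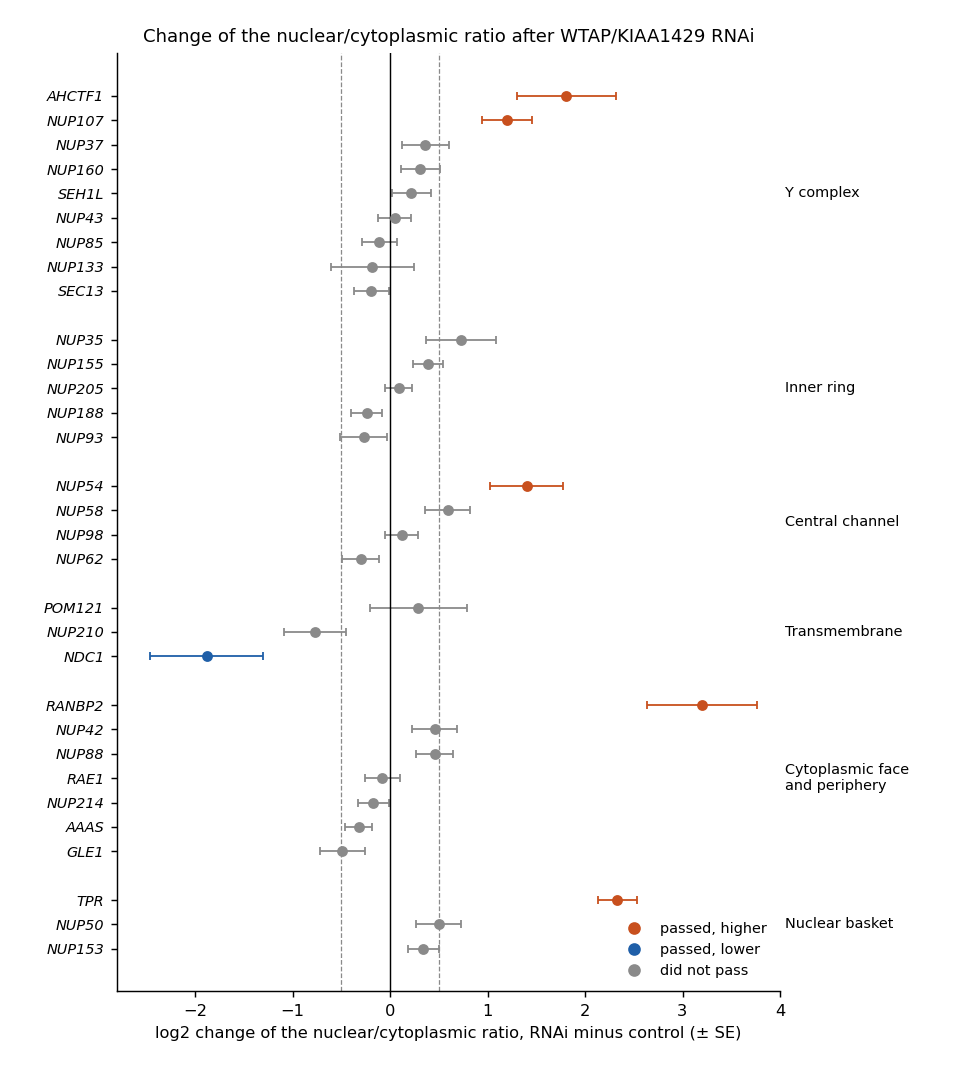
Change of the nuclear/cytoplasmic ratio after WTAP/KIAA1429 RNAi for the 31 members, on the log2 scale with the standard error as bars, grouped by place in the pore. Orange and blue points passed the test and dashed lines mark 0.5 and -0.5. RANBP2 (3.20) and TPR (2.33) lie farthest to the right and NDC1 (-1.88) farthest to the left.

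TPR, the long coiled-coil protein of the nuclear basket (ENSG00000047410, chr1:186280784-186344825, minus strand), gave the firmest change. Its mRNA stood at 49.9 CPM in the control cytoplasmic sample and at 17.3 and 14.9 CPM in the RNAi cytoplasmic samples. In nuclei it stood at 52.8, 57.6 and 54.8 CPM in control samples and at 99.9, 79.2 and 88.7 CPM after RNAi. Every RNAi nuclear sample was above every control nuclear sample, and both RNAi cytoplasmic samples were below the control sample. The ratio rose by 2.33 ± 0.20 on the log2 scale (SE), or 5.01-fold, with an adjusted p of 0.000831 by edgeR's quasi-likelihood test. The cytoplasmic level fell to 32.4% of control (log2 change -1.63 ± 0.16, adjusted p = 0.00061). The nuclear level rose 1.62-fold (0.70 ± 0.11, adjusted p = 0.0169). The nuclear call was lost when either of 2 samples was left out, since the adjusted p was 0.103 without RNAi nuclear replicate 3 and 0.101 without control nuclear replicate 3, at log2 changes of 0.71 and 0.69. The ratio still passed with the GC correction, at 1.56 with an adjusted p of 0.00633. Nearly all TPR counts were on protein-coding transcripts, 95.0% to 97.5% by group, the most counted of which had 9708 nt and 51 exons.

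The other basket members moved less. NUP153, a mobile phenylalanine-glycine nucleoporin of the basket, stood at 180 CPM in control cytoplasm, 169 and 148 CPM in RNAi cytoplasm, 129, 112 and 124 CPM in control nuclei and 141, 130 and 134 CPM in RNAi nuclei. Its RNAi nuclear samples were all slightly above the control ones, by a log2 change of 0.15 ± 0.09 that did not pass (adjusted p = 0.386 by edgeR), and its ratio changed by 0.34 ± 0.16 (adjusted p = 0.214). NUP50, an importin-binding partner of NUP153, had a ratio change of 0.50 ± 0.23 (adjusted p = 0.179).

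RANBP2 encodes the giant protein of the cytoplasmic filaments, which binds Ran and acts as a SUMO ligase (ENSG00000153201, chr2:109335938-109402266, plus strand). Its mRNA stood at 28.2 CPM in control cytoplasm and at 8.02 and 5.69 CPM in RNAi cytoplasm. In nuclei it stood at 37.7, 12.4 and 22.2 CPM in control samples and at 54.2, 54.8 and 54.6 CPM after RNAi. Control nuclei spread widely while the RNAi nuclei nearly coincided, and the groups did not overlap in either fraction. The ratio rose by 3.20 ± 0.56 on the log2 scale, or 9.16-fold (adjusted p = 0.00821 by edgeR), with a fall to 24.7% of control in the cytoplasm (adjusted p = 0.0147) and a rise of 2.26-fold in nuclei (adjusted p = 0.0599). Without control nuclear replicate 2 the ratio change was 2.87 (adjusted p = 0.00123) and the nuclear change 0.86 (adjusted p = 0.0417). The nuclear call was lost when any RNAi nuclear replicate (1, 2 or 3) or control nuclear replicate 3 was left out, with adjusted p of 0.154, 0.169, 0.186 and 0.203.

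RANBP2 shares nearly identical sequence with the RGPD genes, and the division of reads among these copies is an estimate. RANBP2 with the RGPD copies that could be matched (RGPD1 to RGPD6 and RGPD8) summed to 53.2 CPM in control cytoplasm, 19.6 and 15.4 CPM in RNAi cytoplasm, 67.6, 36.7 and 50.3 CPM in control nuclei and 91.8, 95.6 and 97.1 CPM in RNAi nuclei. The share assigned to RANBP2 itself ranged from 33.8% in control nuclear replicate 2 to 59.0% in RNAi nuclear replicate 1. For the sum, which does not depend on that division, the ratio rose by 2.47 (adjusted p = 0.00277 by edgeR), the nuclear level by 0.88 (adjusted p = 0.0372) and the cytoplasmic level changed by -1.59 (adjusted p = 0.00438). RANBP2 alone had, after the GC correction, a ratio change of 2.45 (adjusted p = 0.0469) and its cytoplasmic fall no longer passed (-1.27, adjusted p = 0.138). Its most counted transcript has an internal exon of 5152 nt, the longest among the members.

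Of the 7 members at the cytoplasmic face and periphery, the other 6 did not pass in ratio. They were NUP88 (0.46 ± 0.19) and NUP214 (-0.17 ± 0.16), which form a filament platform, GLE1 (-0.49 ± 0.23), which activates the helicase that strips export factors from mRNA, its partner NUP42 (0.46 ± 0.23), the mRNA export factor RAE1 (-0.08 ± 0.18) and AAAS (-0.32 ± 0.14), whose product is ALADIN.

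**Figure D2:**
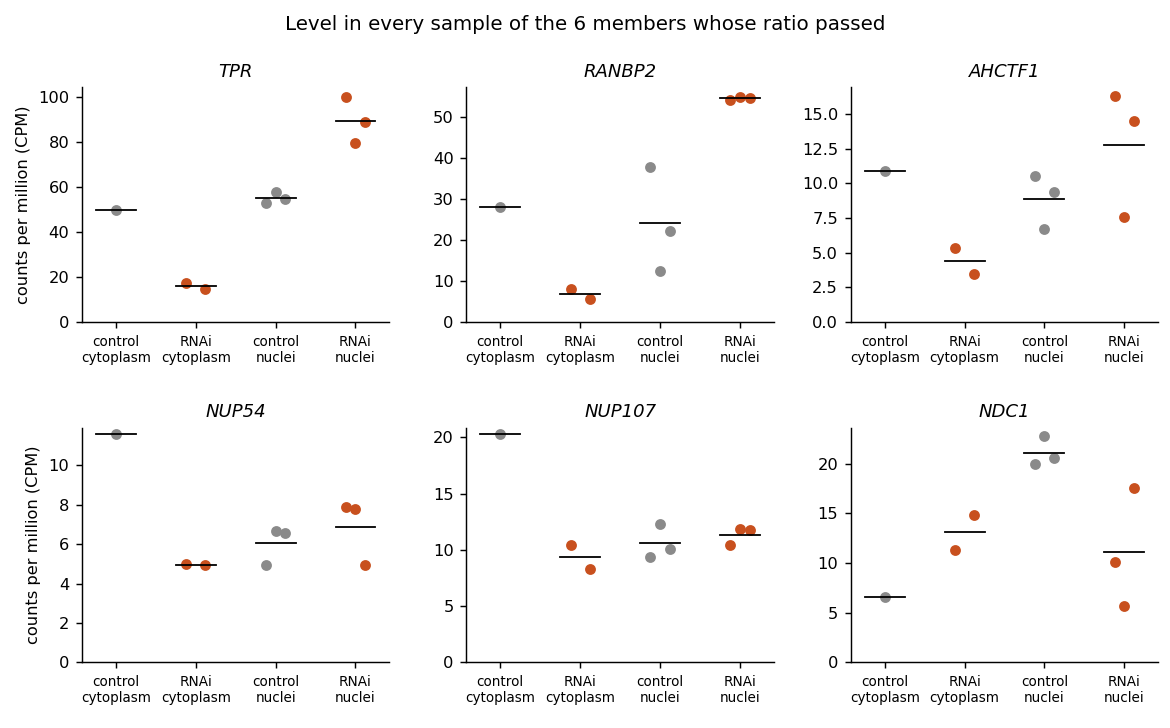
CPM in every sample for the 6 members whose ratio passed, each point being 1 sample and each line the mean of its group (grey control, orange RNAi). Among these members TPR and RANBP2 are the ones whose RNAi nuclear samples all lie above the control nuclear samples, and NDC1 is the one whose RNAi cytoplasmic samples lie above the control sample.

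The Y complex builds the outer rings, and 2 of its 9 members rose in ratio. AHCTF1, or ELYS, seeds pore assembly on chromatin (ENSG00000153207, chr1:247002400-247095250, minus strand). It stood at 10.9 CPM in control cytoplasm, 5.37 and 3.50 CPM in RNAi cytoplasm, 10.5, 6.68 and 9.38 CPM in control nuclei and 16.3, 7.60 and 14.5 CPM in RNAi nuclei. The cytoplasmic samples separated while the nuclear groups overlapped, RNAi nuclear replicate 2 lying inside the control range. The ratio rose by 1.81 ± 0.51 (adjusted p = 0.0448 by edgeR) and the cytoplasmic level fell to 41.4% of control (adjusted p = 0.0594). Both calls were lost without RNAi cytoplasmic replicate 2 (1.60 with an adjusted p of 0.126, and -1.07 with 0.199), with the GC correction (1.05, adjusted p = 0.277) and with an offset for transcript length (0.85, adjusted p = 0.408). The gene had 32 to 234 estimated counts per library, and transcripts without a defined coding sequence carried 40.3% of them in control cytoplasm.

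NUP107, a core scaffold subunit of the Y complex (ENSG00000111581, chr12:69080731-69139589, plus strand), stood at 20.3 CPM in control cytoplasm, 10.4 and 8.31 CPM in RNAi cytoplasm, 9.41, 12.3 and 10.1 CPM in control nuclei and 10.4, 11.9 and 11.8 CPM in RNAi nuclei. Nuclear levels overlapped and the cytoplasmic level fell to 46.6% of control (adjusted p = 0.00683 by edgeR), which gave a ratio change of 1.20 ± 0.26 (adjusted p = 0.019). The GC correction reduced the ratio change to 0.68 (adjusted p = 0.225). NUP37, a small propeller protein of the Y complex, stood at 24.2 CPM in control cytoplasm, 12.9 and 13.9 CPM in RNAi cytoplasm, 14.3, 11.7 and 10.8 CPM in control nuclei and 9.18, 8.43 and 8.65 CPM in RNAi nuclei. It was lower after RNAi in both fractions without overlap, and the cytoplasmic fall to 55.4% passed (adjusted p = 0.0134), whereas the nuclear change of -0.49 ± 0.14 was just within the limit of size (adjusted p = 0.0815). With the GC correction the cytoplasmic change of NUP37 was 0.02 (adjusted p = 0.971). Its ratio change was 0.36 ± 0.24 (adjusted p = 0.362). The remaining members of the Y complex, NUP43, NUP85, NUP133, NUP160, SEH1L and SEC13, had ratio changes between -0.19 and 0.31, and none passed.

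None of the 5 inner ring members passed in ratio by edgeR or by DESeq2, and the changes ran from -0.27 for NUP93 to 0.73 for NUP35. By edgeR 1 was higher at an unadjusted p under 0.05, a cut that was not counted over all genes. NUP155, which ties the inner ring to the membrane, fell in the cytoplasm. It stood at 132 CPM in control cytoplasm, 86.5 and 84.2 CPM in RNAi cytoplasm, 93.0, 82.9 and 88.0 CPM in control nuclei and 74.7, 73.5 and 74.8 CPM in RNAi nuclei. Levels after RNAi were below control in both fractions without overlap, the cytoplasmic level being 64.5% of control (adjusted p = 0.00608 by edgeR) and the nuclear change, -0.24 ± 0.08, not passing (adjusted p = 0.133). The cytoplasmic change of NUP155 was -0.10 (adjusted p = 0.68) with the GC correction. The scaffold proteins NUP205 and NUP188 had ratio changes of 0.09 ± 0.14 and -0.24 ± 0.16.

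In the central channel, NUP54, NUP58 and NUP62 form a trimer of phenylalanine-glycine proteins, and NUP54 rose in ratio. NUP54 (ENSG00000138750, chr4:77028715-77069638, minus strand) stood at 11.6 CPM in control cytoplasm, 4.98 and 4.92 CPM in RNAi cytoplasm, 4.94, 6.68 and 6.55 CPM in control nuclei and 7.86, 7.79 and 4.94 CPM in RNAi nuclei. The nuclear groups overlapped and the cytoplasmic samples did not. Its ratio rose by 1.40 ± 0.37 (adjusted p = 0.0353 by edgeR), with a cytoplasmic fall to 42.9% of control (adjusted p = 0.018). The ratio change was 0.50 (adjusted p = 0.528) with the GC correction, and it did not pass when counts were limited to protein-coding transcripts (1.41, adjusted p = 0.442). NUP54 had 45 to 190 estimated counts per library, and transcripts outside the protein-coding, retained-intron and nonsense-mediated decay classes held 39.9% of its counts in control nuclei against 3.8% in control cytoplasm.

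NUP58 stood at 49.9 CPM in control cytoplasm, 30.7 and 25.5 CPM in RNAi cytoplasm, 23.8, 19.5 and 21.6 CPM in control nuclei and 20.5, 18.3 and 16.2 CPM in RNAi nuclei. The cytoplasmic level fell to 56.4% of control (adjusted p = 0.0128 by edgeR) and the nuclear groups overlapped. The ratio change of 0.59 ± 0.23 did not pass (adjusted p = 0.127), although it did without control nuclear replicate 1 (0.71, adjusted p = 0.0642), and the GC correction reduced the cytoplasmic change to -0.29 (adjusted p = 0.339). NUP62, the partner of both, leaned the other way, with 167 CPM in control cytoplasm, 224 and 204 CPM in RNAi cytoplasm, 150, 117 and 151 CPM in control nuclei and 143, 151 and 142 CPM in RNAi nuclei. Its cytoplasmic samples were above control after RNAi, its nuclear groups overlapped, and neither its ratio (-0.30 ± 0.19, adjusted p = 0.348) nor its cytoplasmic change (0.36 ± 0.16, adjusted p = 0.146) passed. NUP98, which lines the channel and binds RAE1, stood at 246 CPM in control cytoplasm, 246 and 221 CPM in RNAi cytoplasm, 189, 160 and 172 CPM in control nuclei and 166, 192 and 179 CPM in RNAi nuclei. Its groups overlapped in nuclei and its ratio change was 0.12 ± 0.17 (adjusted p = 0.711), although with an offset for transcript length it passed as higher (0.53, adjusted p = 0.0893).

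NDC1, a transmembrane nucleoporin required for pore assembly (ENSG00000058804, chr1:54231151-54304136, minus strand), was the member whose ratio fell. It stood at 6.63 CPM in control cytoplasm, 11.3 and 14.9 CPM in RNAi cytoplasm, 19.9, 22.8 and 20.6 CPM in control nuclei and 10.1, 5.65 and 17.6 CPM in RNAi nuclei. All RNAi nuclear samples were below the control nuclear samples and both RNAi cytoplasmic samples were above the control sample, but neither the nuclear change (-0.91 ± 0.30, adjusted p = 0.124 by edgeR) nor the cytoplasmic change (0.97 ± 0.49, adjusted p = 0.19) passed. The ratio change was -1.88 ± 0.58 (adjusted p = 0.0608). It did not pass without RNAi cytoplasmic replicate 2 (-1.63, adjusted p = 0.164), RNAi nuclear replicate 1 (-1.81, adjusted p = 0.121) or control nuclear replicate 3 (-1.85, adjusted p = 0.118). With an offset for transcript length it was -0.46 (adjusted p = 0.725), and a transcript outside the coding class carried 36.6% of the NDC1 counts in control cytoplasm against 0.7% in control nuclei. With the GC correction the fall was larger (-2.78, adjusted p = 0.0496).

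POM121, the membrane nucleoporin with phenylalanine-glycine repeats, could not be measured apart from its near-identical copy POM121C. Its own estimate was 122 CPM in control cytoplasm, 210 and 125 CPM in RNAi cytoplasm, 132, 52.8 and 84.3 CPM in control nuclei and 145, 156 and 154 CPM in RNAi nuclei. RNAi nuclei were all above control nuclei, with a change of 0.76 ± 0.28 that did not pass (adjusted p = 0.161 by edgeR), fell to 0.48 without control nuclear replicate 2 (adjusted p = 0.224) and passed without control nuclear replicate 1 (1.15, adjusted p = 0.0265). POM121 held between 35.3% and 75.9% of the sum of the copies, the highest share being in control nuclear replicate 2, where that sum was lowest (69.5 CPM, against 269.4 and 168.9 CPM in the other control nuclear samples). NUP210, singled out after its values were seen, is the third membrane nucleoporin and had a ratio change of -0.77 ± 0.32 (adjusted p = 0.144). Its ratio passed as lower with the DESeq2 Wald test, with no filter on low counts and without control nuclear replicate 2.

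The change of ratio was compared with the change in each fraction. In nuclei, 2 of the 31 members rose (6.45%, TPR and RANBP2) compared with 2.47% of all genes tested, and none fell compared with 2.42%. By edgeR, 6 members were lower in RNAi nuclei at an unadjusted p under 0.05, a cut that was not counted over all genes. The DESeq2 Wald test called 1 member lower, NDC1, and 292 of all 16181 genes. By CPM alone, 4 members (12.9%) had all RNAi nuclear samples above all control ones, against 14.3% of genes, and 9 (29.0%) had all of them below, against 13.8% of genes. The limma test on log2(TPM + 1) called none lower, and 19 of all 16181 genes. In the cytoplasm, 8 members fell (25.8%, namely RANBP2, TPR, AHCTF1, NUP54, NUP107, NUP37, NUP58 and NUP155) compared with 14.2% of all genes, and none rose compared with 10.4%. Higher in the cytoplasm at an unadjusted p under 0.05, again not counted over all genes, was 1 member by edgeR. The DESeq2 Wald test called 1 member higher, NUP210, and 1639 of all 16181 genes. Both RNAi cytoplasmic samples were below the control sample for 19 members (61.3%), against 40.1% of genes, and above it for 9 (29.0%), against 39.6% of genes. The median log2 change of the members was -0.03 in nuclei and -0.19 in the cytoplasm, against 0.00 and 0.01 over all genes. For AHCTF1, NUP54 and NUP107 the nuclear change did not pass (0.54 ± 0.28, 0.18 ± 0.21 and 0.09 ± 0.15). The larger part of the rise of their ratio lay in the cytoplasmic fall against 1 control library (-1.27, -1.22 and -1.10). For TPR and RANBP2 too the cytoplasmic change (-1.63 and -2.02) was larger than the nuclear change (0.70 and 1.18). The nuclear rise of AHCTF1 passed by edgeR with no filter (0.51, adjusted p = 0.0991) and with the replicate block (0.50, adjusted p = 0.0693). With the GC correction, 1 member, TPR, was still lower in the cytoplasm (-0.88, adjusted p = 0.0188).

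**Figure D3:**
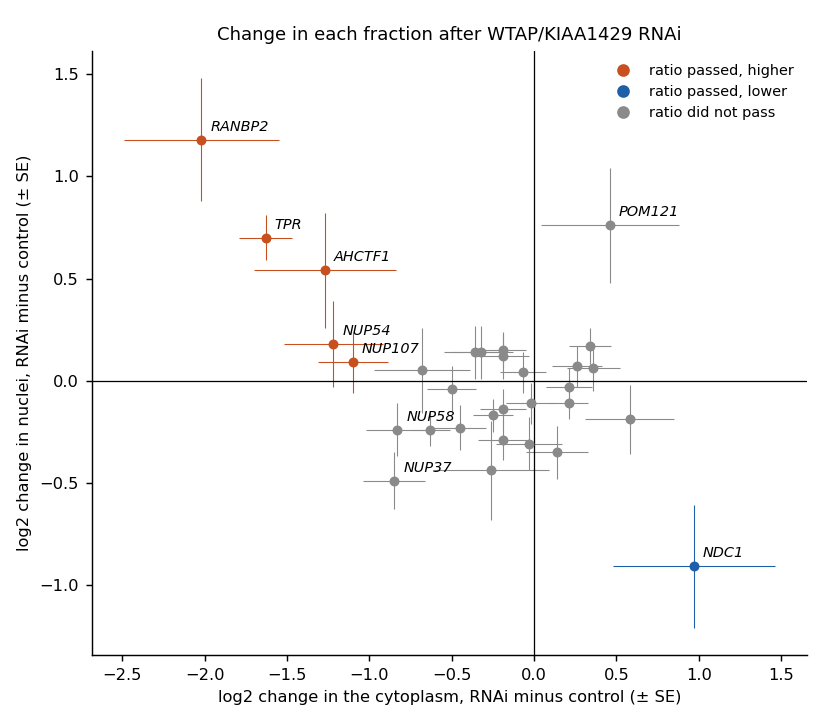
Change after WTAP/KIAA1429 RNAi in the cytoplasm (horizontal axis) and in nuclei (vertical axis) for the 31 members, on the log2 scale with standard errors as bars, coloured by the result of the ratio test. TPR (-1.63, 0.70) and RANBP2 (-2.02, 1.18) lie at the upper left and NDC1 (0.97, -0.91) at the lower right, while most members lie between -0.5 and 0.5 on both axes.

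The fractions were also compared within each condition. In control cells 12 of the 31 members (38.7%) were lower in nuclei than in the cytoplasm, compared with 22.7% of all genes tested, and 3 (9.68%) were higher, compared with 28.0%. The median log2 value of nucleus against cytoplasm was -0.44 over the members and 0.04 over all genes. The lowest values were those of NUP58 (-1.20 ± 0.17), NUP88 (-1.12 ± 0.14), NUP35 (-1.07 ± 0.26) and SEH1L (-1.04 ± 0.15). By role, 5 of 9 Y complex members, 2 of 5 inner ring members, 2 of 4 channel members, 2 of 3 basket members and 1 of 7 members of the cytoplasmic face were lower in nuclei. On log2(TPM + 1) with limma, which is per length, 5 members (16.1%) were lower in nuclei in place of 12, compared with 15.3% of all genes, so the members' share was then close to that of all genes. With protein-coding transcripts alone 8 members (25.8%) were lower, compared with 19.0% of genes.

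NUP210 went the other way. It is a large membrane glycoprotein of the pore, and its mRNA stood at 310 CPM in control cytoplasm, 512 and 412 CPM in RNAi cytoplasm, 1738, 990 and 1318 CPM in control nuclei and 1210, 1178 and 1151 CPM in RNAi nuclei. Every nuclear sample was above every cytoplasmic sample. The log2 value of nucleus against cytoplasm was 2.12 ± 0.28 in control cells (adjusted p = 0.000254 by edgeR) and 1.35 ± 0.20 in RNAi cells (adjusted p = 0.000271). NUP214 (0.50 ± 0.13) and NDC1 (1.67 ± 0.47) were also higher in control nuclei, and neither passed with an offset for transcript length.

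After RNAi, 9 members (29.0%) were lower in nuclei than in the cytoplasm, compared with 24.9% of all genes, and 4 (12.9%) were higher, compared with 32.9%. The 4 were NUP210, RANBP2 (2.97 ± 0.40), TPR (2.47 ± 0.14) and AHCTF1 (1.51 ± 0.34). In control cells the values of RANBP2 (-0.22 ± 0.42), TPR (0.14 ± 0.15) and AHCTF1 (-0.30 ± 0.38) had not passed in either direction. The counts in RNAi cells changed with the setting, for members and for all genes alike. Library size alone gave 8 members higher (25.8%, compared with 39.9% of all genes) and 2 lower (6.45%, compared with 12.9%). The limma test on log2(TPM + 1) gave 10 higher (32.3%, compared with 37.7%) and none lower (compared with 7.53%).

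**Figure D4:**
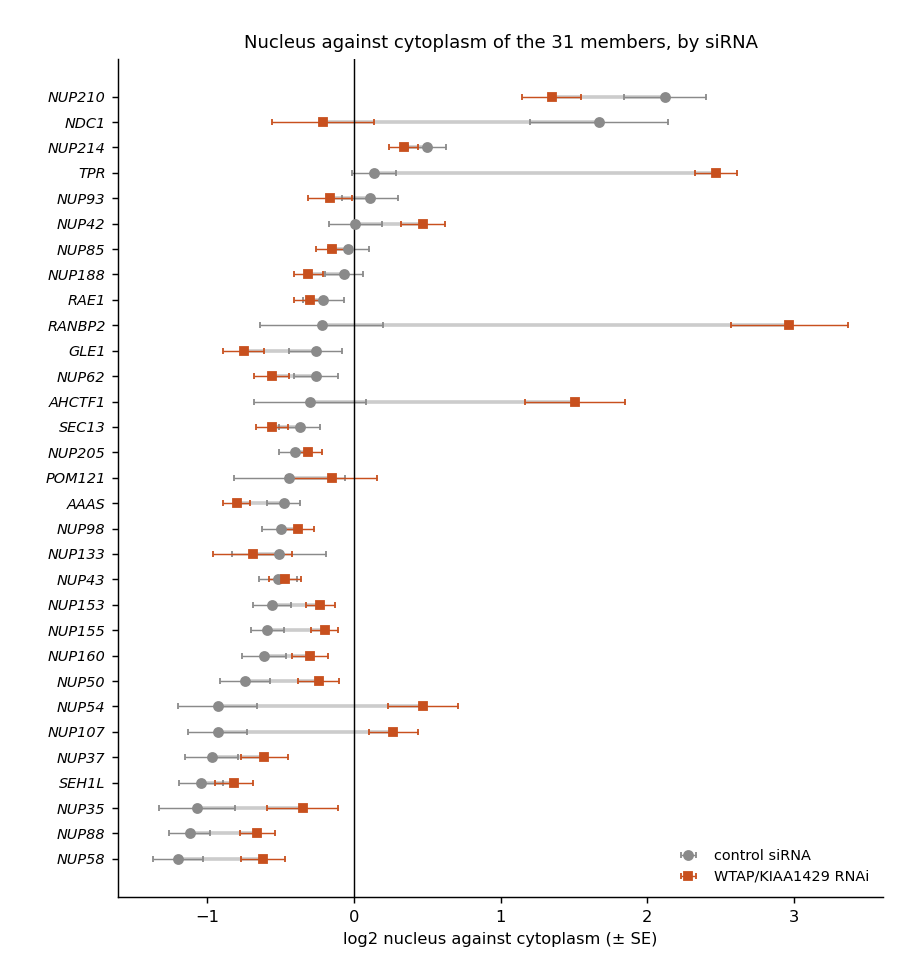
Nucleus against cytoplasm on the log2 scale for each member, in control cells (grey circles) and RNAi cells (orange squares), with standard errors as bars and members ordered by the control value. The longest shifts to the right are those of RANBP2 and TPR, NUP54, NUP107 and AHCTF1 also move to the right, and NDC1 moves from 1.67 to -0.21.

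Levels between genes were compared per length, as TPM summed per gene. In the control cytoplasmic sample AAAS (130 TPM), SEC13 (121 TPM) and NUP98 (120 TPM) were the most abundant members and RANBP2 (2.27 TPM), AHCTF1 (2.57 TPM) and NDC1 (4.69 TPM) the least. In control nuclei NUP210 came first at 184 ± 33.0 TPM (SD, n = 3), followed by SEC13 at 106 ± 17.7 and AAAS at 102 ± 3.87, which did not differ beyond their spread. RANBP2 came last at 2.61 ± 1.33 TPM, close to AHCTF1 at 2.92 ± 0.554 TPM. TPR rose from 11.5 ± 2.78 to 22.6 ± 0.745 TPM in nuclei and stood at 10.8 TPM in control and 2.54 ± 0.570 TPM in RNAi cytoplasm (n = 2), so the same pattern appeared on this scale. RANBP2 went from 2.61 ± 1.33 to 7.06 ± 0.668 TPM in nuclei and from 2.27 to 0.50 ± 0.0986 TPM in the cytoplasm. NDC1, by contrast, was at 4.69 TPM in control cytoplasm and 4.36 ± 0.536 TPM in control nuclei, without the difference seen in CPM.

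The members with a higher ratio shared a low GC content. The most counted transcripts of TPR, RANBP2, AHCTF1, NUP54 and NUP107 had GC contents of 38.5% to 41.2% (median 39.6%), compared with a median of 44.4% over the 31 members and 49.9% over all genes tested. NDC1, whose ratio fell, had 38.8%. Across the 31 members the change of ratio had a Spearman correlation with GC content of -0.68 (Pearson -0.48), and across all 16181 genes of -0.53 (Pearson -0.40). Genes are not independent replicates, and all points share the same 9 libraries. Without the 6 members that passed, the correlation across the other 25 was -0.76. Over the 22 members whose transcript length was within 5% of the annotated one it was -0.92. The relation was seen in the cytoplasm, where the change after RNAi correlated with GC content at 0.77 across members and 0.55 across all genes, against -0.06 and -0.04 in nuclei.

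The 12771 length-matched genes were divided into 3 equal groups by GC content, and the lowest (23.5% to 45.6% GC) had 26.8% of genes with a higher ratio and 0.470% with a lower one. It held 12 of the 22 length-matched members, among them the 5 with a higher ratio, and 18 of all 31 members had a GC content within its range, NDC1 included. The middle group had 4.11% higher and 4.75% lower, and the highest 1.41% higher and 18.7% lower. Of those 18 members 27.8% had a higher ratio, close to the 26.8% of genes in that group, and of the 12 length-matched ones 41.7%. A base composition particular to the 1 control cytoplasmic library cannot be told apart from an effect of the siRNAs. The change of ratio had a Spearman correlation with transcript length of 0.19 across members (Pearson 0.45) and 0.15 across all genes (Pearson 0.14). For the longest internal exon it was 0.25 across members (Pearson 0.58) and 0.00 across all genes (Pearson 0.07), the Pearson values of the members falling to 0.02 for length and 0.27 for the exon without TPR and RANBP2. For GGACT per kilobase it was -0.28 across members (Pearson -0.17) and -0.17 across all genes (Pearson -0.12).

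**Figure D5:**
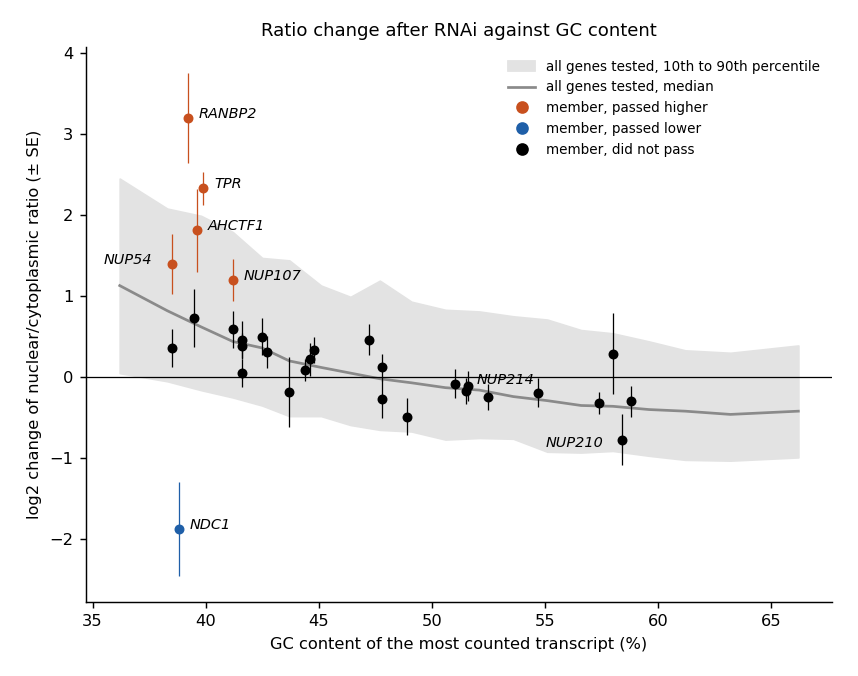
Change of the nuclear/cytoplasmic ratio (log2, with standard error) against the GC content of the most counted transcript (%). Points are the 31 members, the line is the median of all genes tested in 20 bins of GC content and the band runs from their 10th to their 90th percentile. TPR and RANBP2 lie above the band at 39.9% and 39.2% GC, NDC1 lies below it, and the other members lie within it.

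The other genes of nuclear transport were described in the same fits, from a list chosen with earlier results of these data known. Of 41 listed import and export receptors, Ran cycle factors and pore-associated export and SUMO factors, 40 were tested. Their ratio rose for 8 (20%, compared with 10.4% of all genes) and fell for 1 (2.5%, compared with 7.87%), with a median of 0.01 against -0.05 over all genes. In the cytoplasm 12 were lower (30.0%, compared with 14.2%) and 3 higher (7.5%, compared with 10.4%). KPNA5, an importin alpha, rose by 2.03 ± 0.54 in ratio (adjusted p = 0.0394 by edgeR) from low levels of 1.09 to 5.05 CPM. XPO1, the main protein export receptor, rose by 1.17 ± 0.17 (adjusted p = 0.00397) through a fall from 124 CPM to 50.0 and 43.6 CPM in the cytoplasm. The import receptors TNPO1 (1.06 ± 0.23), IPO7 (0.90 ± 0.17) and KPNA3 (0.88 ± 0.18) and the TREX-2 subunit ENY2 (0.88 ± 0.24) rose in ratio as well, and none of these 6 rose in nuclei, where ENY2 fell (-0.56 ± 0.14, adjusted p = 0.0549). Of 14 listed genes of the lamina and envelope, 13 were tested and none passed in ratio in either direction by edgeR or DESeq2. Their median was 0.23. By edgeR 1 gene was lower at an unadjusted p under 0.05, a cut that was not counted over all genes.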

How the data were processed

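RNA of nuclear and cytoplasmic fractions was sequenced, and the authors trimmed reads with cutadapt and quantified them with Salmon against hg19 transcripts (Ensembl annotation, versions of both tools not given in the sources used here). The deposited tables held, per transcript, a length, an effective length, TPM and estimated counts. Here transcripts were assigned to genes with GENCODE 44 lifted to GRCh37: 183122 of 215170 (85.1%) matched, holding 83.07% to 88.31% of the counts of each library, and the rest were left out. For each gene the deposited estimated counts of its transcripts were added and the sum was made whole, and the deposited TPM values were added likewise. Counting error sets a floor, taken as 3 counts. CPM are matched counts over the library's matched total times its TMM factor (0.829 to 1.13).

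Genes with at least 10 counts in at least 3 samples were kept. edgeR 4.0.16 (R 4.3.3) was run with TMM scaling and the quasi-likelihood test on 9 samples in 4 groups, with 5 residual degrees of freedom. Because the groups share 1 estimate of the spread, the single control cytoplasmic sample is assumed to vary like the others. The ratio is the interaction of fraction and RNAi. Calls needed a log2 change beyond 0.5 and an adjusted p under 0.1, and the procedure was tested on simulated data. GC content, exons and GGACT were read from the annotated transcript with the highest mean estimated count. For 22 of 31 members its length was within 5% of the deposited one. Values in every sample are given for members called in ratio, nuclei or cytoplasm and for NUP62, NUP98, NUP153, TPR, RANBP2, NUP107 and POM121, and others by range and count. Alternatives were DESeq2 1.42.0, limma 3.58.1 on log2(TPM + 1) and log2(TPM + 0.1), a transcript length offset taken from the deposited effective lengths (unit bases), other scalings and filters, protein-coding transcripts alone, a replicate block, the stricter adjusted p of 0.05, and leaving out each sample. A GC correction and summing of near-identical copies were added after seeing the data. The members and gene lists were chosen with earlier results of these data known. Part of the list of markers of other cell types is not reported here.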

Additional observations from a re-analysis of the deposited data

Results flagged for a closer look

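The effect of RNAi differed between nuclei and cytoplasm, by the test of that difference, for 6 of the 31 pore mRNAs. The difference was positive for 5 (16.1%, compared with 10.4% of all genes tested) and negative for 1 (3.23%, compared with 7.87%). On the log2 scale the difference (nuclear change minus cytoplasmic change) was 3.20 for RANBP2, 2.33 for TPR, 1.81 for AHCTF1, 1.40 for NUP54 and 1.20 for NUP107. It was -1.88 for NDC1, whose RNAi samples lay below control in nuclei and above control in the cytoplasm. TPR and RANBP2 passed under all 21 alternative settings, with a log2 difference of 1.56 to 3.06 for TPR and of 2.35 to 3.74 for RANBP2. NUP107 passed under 20 of 21, NUP54 under 19, AHCTF1 under 16 and NDC1 under 14. All 6 rest on 1 control cytoplasmic library.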

How the results depend on the processing

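Of 216 counts of members recomputed under the alternatives, 166 stayed within 1.5 times the reported count and 50 did not, and of 845 values of single members 780 kept their direction and side of the threshold. For the 5 members with a higher ratio, the GC correction left 2, library size alone gave 8, and leaving out samples gave 4 to 7. For the 1 member with a lower ratio, the DESeq2 Wald test and no filter gave 2, the length offset, limma with either pseudocount and an adjusted p under 0.05 gave 0, and leaving out samples 0 to 2. For the 2 members higher in nuclei, limma with 0.1 added gave 0, an adjusted p under 0.05 gave 1, no filter 4 and leaving out samples 0 to 3. For the 0 members lower in nuclei, the DESeq2 Wald test and the GC correction gave 1, no filter 2 and leaving out samples 0 to 1. In the cytoplasm the 0 higher became 1 with the DESeq2 Wald test, the GC correction and protein-coding transcripts, 2 with no filter and 0 to 1 with samples left out. The 8 lower became 1 with the GC correction, 13 with library size alone, 5 with limma and 0.1 added, and 8 to 11 with samples left out. With the GC correction the cytoplasmic change of NUP37 turned from -0.85 to 0.02. Counts over all 16181 genes moved under the same settings. The 1680 higher ratios became 473 with the GC correction and 2236 with library size alone. The 1273 lower ratios became 713 with the length offset. The 400 higher in nuclei became 4 with limma and 0.1 added. The 2305 lower in the cytoplasm became 646 with the GC correction, 3200 with library size alone and 1664 with limma and 0.1 added. The cause of these changes was not tested.

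In control cells the 3 members higher in nuclei became 1 with the length offset (2 to 3 with samples left out), and the 12 lower became 4 and 5 with limma and 0.1 or 1 added (12 to 16 with samples left out). In RNAi cells the 4 higher became 7 with at least 10 counts in every sample, 8 with library size alone and 10 with limma (4 to 6 with samples left out). The 9 lower became 3 with that filter, 2 with library size alone, 0 with limma, 3 with protein-coding transcripts and 7 to 10 with samples left out.

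Same-numbered nuclear samples correlated at 0.185, 0.11 and 0.042 in their deviations from the group means, and differently numbered ones at -0.172 to 0.056. Each control nuclear sample had its largest value with the RNAi sample of its number. RNAi nuclear replicate 3, however, was closest to control nuclear replicate 2 (0.056). Same-numbered RNAi nuclear and cytoplasmic samples correlated at 0.1 and 0.037, against -0.1 to 0.063 for different numbers. The deviations of the 2 RNAi cytoplasmic samples from their mean are equal and opposite. Each nuclear sample therefore gave the same value with opposite signs, and these values cannot decide on a pairing. Whether samples of a number share a batch was not tested, and the labels do not say. With the replicate block 6 members were higher in ratio, 4 higher and 1 lower in nuclei. Over all 16181 genes that block gave 2121 higher and 1917 lower in ratio, and 549 higher and 486 lower in nuclei.

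Over all genes, 1680 higher and 1273 lower ratios became 473 and 305 with the GC correction, 1069 and 713 with the length offset, 1338 and 59 with limma and 0.1 added and 1167 and 38 with 1 added. The 400 higher and 392 lower in nuclei became 4 and 0, and 139 and 19, with limma, 228 and 214 with the length offset, 633 and 673 with no filter, and as few as 32 and 20 without RNAi nuclear replicate 3. The 1678 higher and 2305 lower in the cytoplasm became 597 and 646 with the GC correction, 431 and 3200 with library size alone, and 125 and 1664 with limma and 0.1 added. In control cells the 4538 genes higher in nuclei than cytoplasm became 4055 with the length offset. The 3679 lower became 2084 and 2479 with limma and 0.1 or 1 added. In RNAi cells the 5316 higher and 4034 lower became 3438 and 2601, of 12365 genes, with at least 10 counts in every sample. With protein-coding transcripts alone they became 3424 and 2352, of 12774 genes. Members with few counts, such as AHCTF1 (32 to 234 per library) and NUP54 (45 to 190), carried the widest errors among those that rose apart from RANBP2.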

Other observations

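The estimated counts of each pore gene were also divided by transcript class. Protein-coding transcripts held a median of 96.9% of a member's estimated counts in control cytoplasm and 97.5% in RNAi cytoplasm, against 91.1% in control and 88.9% in RNAi nuclei. The median share of retained-intron transcripts was 0.1% in both kinds of cytoplasm, 1.8% in control nuclei and 2.9% in RNAi nuclei. NUP42, the partner of GLE1 in mRNA release, had 22.9% of its counts on retained-intron transcripts in control cytoplasm and 54.0% ± 9.1 (SD, n = 3) in control nuclei, with 18.7% ± 5.1 (n = 2) and 53.9% ± 6.1 (n = 3) after RNAi. RAE1 went from 0.2% to 13.4% ± 3.8 between the control fractions and from 0.3% ± 0.1 to 16.1% ± 2.0 between the RNAi fractions. NUP50 went from 0.8% to 15.8% ± 2.4 and from 0.9% ± 0.1 to 16.7% ± 1.1, and SEC13 from 2.6% to 10.6% ± 0.9 and from 2.0% ± 0.2 to 13.7% ± 0.8. NUP88 was unlike these, at 50.0% in control cytoplasm, 53.8% ± 12.4 in control nuclei, 52.5% ± 2.3 in RNAi cytoplasm and 58.5% ± 3.7 in RNAi nuclei. These shares come from the estimated division of reads among overlapping transcripts, were not tested, and were picked after their values were seen.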
